A study of Mus musculus with 18 samples.

Results

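The tubulin isotypes described here are 9 mouse genes, Tubb2a, Tubb2b, Tubb3, Tubb5, Tubb6, Tuba1a, Tuba1b, Tuba4a and Tubg1. They were taken by gene symbol from the array's probe annotation, with every probe that carries 1 of these symbols, which gave 16 of 45281 probes and 9 of the 19057 genes named on the array. The study measured total RNA on 18 Illumina BeadChip arrays, 3 biological replicates in each of 6 groups. These were whole brain from male mice, Th1 cells and Th2 cells (2 kinds of helper T cell, known for making interferon gamma and interleukin 4), dendritic cells (DC; antigen-presenting cells), B cells (the antibody lineage) and naive CD4 T cells (helper cells before their first antigen). All groups were labelled C57/BL6, the immune cells were labelled as male and female together, and neither an age nor a genetic change or drug is given in the labels; the labels of the immune samples add "wt". The sources used here do not say how cells were purified or how the Th1 and Th2 cells were made.

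Microtubules are hollow filaments built from dimers of alpha-tubulin (Tuba genes) and beta-tubulin (Tubb genes), and gamma-tubulin (Tubg genes) sits in the ring complexes from which they grow. Several genes encode nearly identical alpha and beta chains, called isotypes, which cells mix in different proportions. Neurons are known for Tubb3, Tubb2a, Tubb2b, Tubb4a, Tuba1a and Tuba4a, whereas Tubb5, Tuba1b and Tubg1 are expressed in most cell types, and changes in human TUBB2B and TUBA1A cause malformations of the cerebral cortex. In lymphocytes, microtubules form the spindle of dividing cells and turn the centrosome towards the contact with another cell.

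The genes were chosen by their probe signals in these same groups, which were already known, so their differences between groups are given as a description, without p-values. Levels are log2 signals after background correction, an offset of 16 and quantile normalization; a log2 difference of 1 is a 2-fold change. A level can be compared between groups for 1 probe, but not between probes, since probes bind with different strength. A probe counted as detected on an array at a detection p under 0.01, and a probe entered the fits if it was detected on at least 3 arrays. That held for 12 of the 16 probes and for 7 of the 9 genes. The single probes of Tubb2a and Tubb3, 1 of 6 Tubb2b probes and 1 of 2 Tubb5 probes were detected on no array. Where a gene had several probes in the fits, the brightest stood for it. In bulk samples, fewer cells of a type and less RNA per cell cannot be told apart.

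Detected probes numbered 20377 to 20497 on brain arrays and 12564 to 16259 on the others. Background signal was 43.7 to 45.2 on DC arrays and 45.8 to 51.3 on B cell arrays, against 32.4 to 36.9 on the rest, so it cannot be told apart from the group there. The DC arrays carried all 5 granulocyte and monocyte markers, at a summed level of 37300 to 48100, against 98 to 293 on naive arrays. The 2 NK cell markers measured and the 4 T cell markers measured were likewise detected on all 3 DC arrays, as were both erythroid markers (summed level 1790 to 9050, against 74.2 to 211 on naive arrays) and 2 of 3 B cell markers (1200 to 2690, against 99.5 to 194). In brain, all 3 neuron markers, 4 astrocyte markers and 3 oligodendrocyte markers measured were detected on every array, and so were both erythroid markers. The markers of the remaining labels were detected too, with 4 of 4 T cell markers on every T cell array and 3 of 3 B cell markers on every B cell array. All 3 B cell arrays also detected 3 of 4 T cell markers (summed level 254 to 578, against 23000 to 23500 on naive arrays). They detected 2 of 5 granulocyte and monocyte markers and the erythroid marker Hba-a1 as well. The B cell marker Cd79b was detected on all 3 naive arrays, and the neuron marker Eno2 on all Th1, Th2, DC and naive arrays. All Th1 arrays detected 2 of 4 dendritic cell markers.

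No promoter window is given for Tubb2b, Tubb6 or Tubg1, which does not show that the reference lacks one. The other 6 genes had one among RefSeq's 250-base windows before annotated starts (GRCm38.p6). The windows of 4 of them are shown. Tuba1a and Tuba4a stood far higher in brain than in any immune group. Tuba1b and Tubb5 were bright in all groups, although Tuba1b was also highest in brain after quantile normalization, by a smaller margin. Tuba1a and Tuba1b lie beside each other with no protein-coding gene between them. Sequences run 5′ to 3′ along the gene, and capitals mark every match, on either strand, to the TATA-type motif TATAA, the CCAAT motif and the GC box GGGCGG.
Tuba1a (chr15:98953502-98953751, strand -): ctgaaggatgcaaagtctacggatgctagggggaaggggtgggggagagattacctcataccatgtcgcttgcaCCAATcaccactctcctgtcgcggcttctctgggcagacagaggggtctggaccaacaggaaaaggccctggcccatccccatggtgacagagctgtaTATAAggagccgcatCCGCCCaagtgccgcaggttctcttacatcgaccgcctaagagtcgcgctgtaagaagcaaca
Tuba4a (chr1:75219295-75219544, strand -): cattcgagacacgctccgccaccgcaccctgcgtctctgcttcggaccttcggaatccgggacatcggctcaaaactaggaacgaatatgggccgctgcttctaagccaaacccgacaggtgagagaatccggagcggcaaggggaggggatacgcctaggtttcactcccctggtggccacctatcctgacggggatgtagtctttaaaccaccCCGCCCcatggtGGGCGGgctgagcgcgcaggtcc
Tuba1b (chr15:98934391-98934640, strand -): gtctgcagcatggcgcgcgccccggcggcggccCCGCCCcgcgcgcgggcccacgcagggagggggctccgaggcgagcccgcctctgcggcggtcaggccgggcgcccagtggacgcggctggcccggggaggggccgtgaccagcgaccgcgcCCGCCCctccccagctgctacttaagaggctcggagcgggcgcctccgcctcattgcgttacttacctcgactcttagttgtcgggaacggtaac
Tubb5 (chr17:35838302-35838551, strand -): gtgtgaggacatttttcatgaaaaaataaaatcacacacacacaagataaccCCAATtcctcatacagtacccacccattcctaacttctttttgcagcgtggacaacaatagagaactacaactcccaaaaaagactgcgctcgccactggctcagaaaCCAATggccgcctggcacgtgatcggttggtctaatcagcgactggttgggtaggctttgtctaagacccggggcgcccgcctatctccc
Tuba1a alone of the 4 held TATAA, whose first base lay 78 bases before the annotated start, and it also held 1 CCAAT and 1 GC box match. The windows of Tubb2a and Tubb3, which are not shown, held TATAA too, from 29 and 31 bases before the start. Tuba4a held 2 GC box matches, Tuba1b held 2 and Tubb5 held none, and Tubb5 held 2 CCAAT matches. TATAA was present in 22.8% of all 32851 windows, CCAAT in 33.8% and GGGCGG in 32.7%. The windows held 11 CpG in Tuba1a, 20 in Tuba4a, 35 in Tuba1b and 10 in Tubb5, where the median window held 6. A match is a description of these letters and says nothing of what binds there.

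Tubb2b, a beta-tubulin of developing neurons, was high in brain, present in DC, Th1, B and naive CD4 T cells, and lowest in Th2 cells. On its brightest probe (ILMN_1377919), brain arrays read log2 11.09, 11.69 and 11.75. Th1 arrays read 8.97, 9.56 and 9.96, against 4.59, 5.69 and 6.08 on Th2 arrays. The lowest Th2 array was not detected, and the Th1 and Th2 arrays did not overlap. DC arrays read 10.21, 10.21 and 9.92 and B cell arrays 8.95, 9.34 and 9.01, against 7.98, 8.04 and 8.55 on naive arrays. The deposited, uncorrected signals behind the helper subsets were 420.5, 703.5 and 627.4 in Th1 cells and 40.6, 49.0 and 53.4 in Th2 cells. The Th2 signals therefore lay close to the background of their arrays, which was 32.6 to 35.1.

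**Figure D1:**
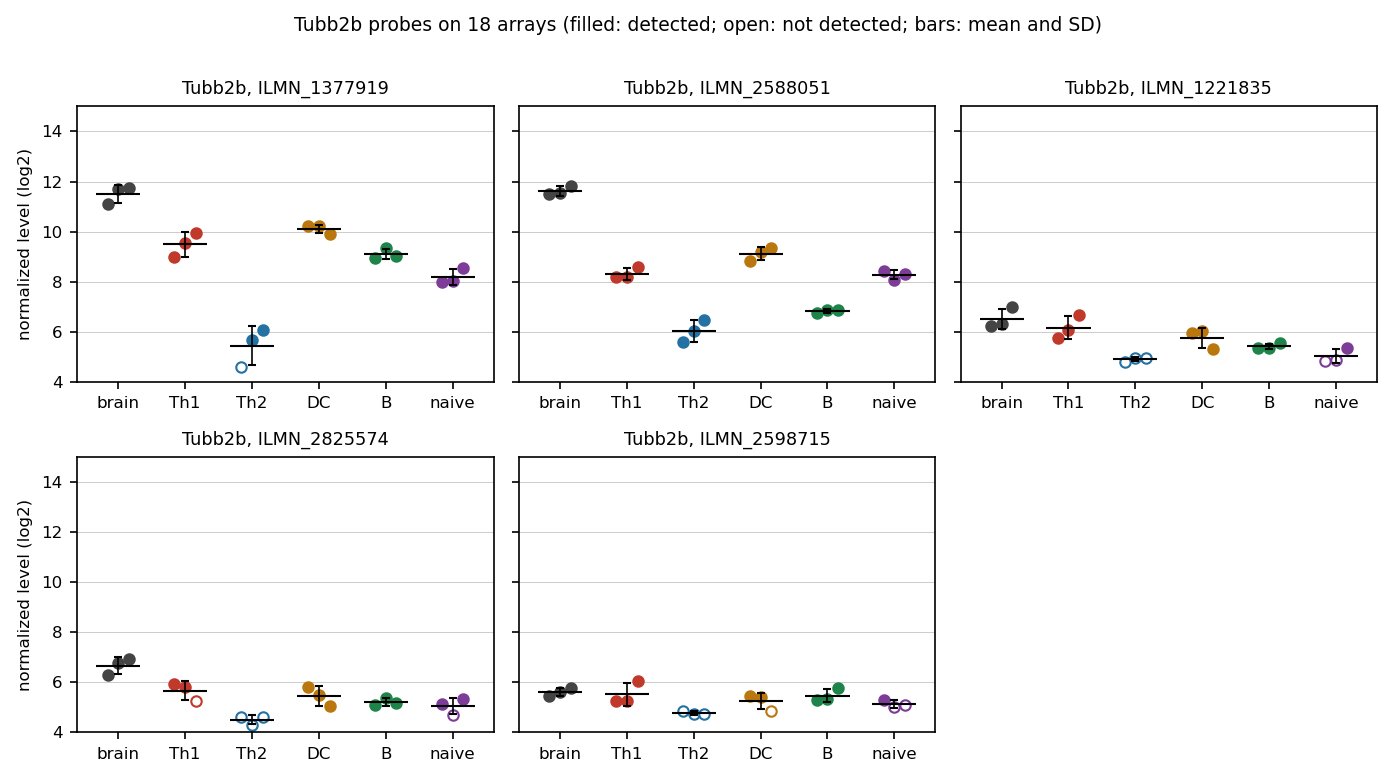
Normalized log2 level of the 5 Tubb2b probes that entered the fits, on each of 18 arrays, by group (3 arrays each; filled points were detected, open points were not; lines and bars give the mean and SD). Th1 arrays lie above Th2 arrays on all 5 probes, by 4.05 on ILMN_1377919 and 2.30 on ILMN_2588051; the other 3 probes were not detected on any Th2 array.

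As means, this probe stood at log2 11.51 ± 0.36 in brain, 9.50 ± 0.50 in Th1 cells, 5.45 ± 0.77 in Th2 cells, 10.11 ± 0.17 in DC, 9.10 ± 0.21 in B cells and 8.19 ± 0.31 in naive CD4 T cells (SD, n = 3 each). In the order brain, DC, Th1, B, naive and Th2, the arrays of DC overlapped those of Th1 cells and the arrays of Th1 cells overlapped those of B cells, while the other neighbours did not overlap. Th1 exceeded Th2 cells by log2 4.05 ± 0.32 (SE), or 16.5-fold. Matched by the replicate number of the sample titles, which the labels do not call a pairing, the 3 differences were 4.38, 3.87 and 3.88. Leaving out each array in turn kept this difference between 3.61 and 4.36. Brain exceeded the mean of the 5 immune groups by 3.04 ± 0.25 (SE). Against naive CD4 T cells, the probe differed by log2 1.31 in Th1 cells and by -2.74 in Th2 cells, both ± 0.32 (SE).

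The second bright probe (ILMN_2588051) was detected on all 18 arrays. It read 11.62 ± 0.18 in brain, 8.32 ± 0.24 in Th1 cells, 6.02 ± 0.45 in Th2 cells, 9.12 ± 0.26 in DC, 6.83 ± 0.06 in B cells and 8.28 ± 0.19 in naive CD4 T cells (SD, n = 3 each). Brain was again highest and Th2 again lowest, with Th1 over Th2 by 2.30 ± 0.20 (SE). The bright probes differed in size, with Th1 over Th2 at 4.91-fold here and 16.5-fold on the brightest probe. DC over naive cells was log2 0.84 here, where the brightest gave 1.92, and Th1 over naive cells was 0.04, where the brightest gave 1.31. For B cells over naive cells they differed in sign, at -1.44 here and 0.92 on the brightest, and the value of the brightest probe was 1.63 with median scaling. With the mean of the gene's detected probes, Th1 over naive cells was 0.70 and DC over naive cells 0.80, both under a log2 difference of 1. The position of either probe in the transcript is not given in the files, so which one stands for Tubb2b in B cells was not tested.

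The other 3 Tubb2b probes in the fits were dim, with every array between log2 4.31 and 6.97. They were undetected on all Th2 arrays, and on 2, 1 and 2 of the 3 naive arrays. Th1 over Th2 was at least 1.89-fold on ILMN_1221835, at least 1.34-fold on ILMN_2825574 and at least 1.2-fold on ILMN_2598715. These bounds set the Th1 mean against the lowest signal that counts as detected on the Th2 arrays. Over all 5 probes, Th1 was above Th2 on 5 with no overlap of arrays on any, and brain was above the immune mean on 5, without overlap on 3. Th2 was below naive on 5 probes, without overlap on 4, and DC were above naive on 5, without overlap on 2. The 5 probes read 1 gene on the same arrays and are not independent. The share of all probes without overlap was not computed, so nothing is read from these counts. The sixth probe read log2 4.18 to 4.45 on every array and was never detected.

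Tubb2a, the beta-tubulin gene next to Tubb2b with no protein-coding gene between them, had 1 probe. It read 4.39, 4.50 and 4.40 in brain and 4.22 to 4.44 on the 15 immune arrays, and its lowest detection p on any array was 0.0235. Tubb3, the class III beta-tubulin used as a marker of neurons, had 1 probe too. It read 4.47, 4.52 and 4.42 in brain and 4.21 to 4.67 on immune arrays. Neither probe was detected in brain, where the 3 neuron markers were at a summed level of 23700 to 25200, so no level is given for either gene. Members of the family share long stretches of sequence. The files hold no probe sequences, and cross-hybridisation between isotypes was not analysed here.

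Tubb6, a beta-tubulin known outside the nervous system, was bright in DC, Th1 and Th2 cells and near or below detection in the other 3 groups. Its single probe read log2 8.84, 8.86 and 8.76 in Th1 cells and 7.41, 8.13 and 8.45 in Th2 cells. DC arrays read 8.87, 9.25 and 9.24. B cell arrays read 4.47, 4.96 and 4.58 and naive arrays 4.21, 4.23 and 4.29, and none of these 6 arrays was detected. Brain arrays read 4.73, 4.58 and 4.54, with 2 of 3 detected. The probe entered the fits through the 9 arrays of DC, Th1 and Th2 cells, all detected, together with those 2 brain arrays.

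Over naive CD4 T cells, Tubb6 was at least 16.5-fold higher in DC, at least 13.4-fold higher in Th1 cells and at least 7.56-fold higher in Th2 cells. No array of these 3 groups overlapped any naive array. Th1 exceeded Th2 cells by log2 0.82 ± 0.20 (SE), with no overlap of their arrays, and by 0.53 without Th2 replicate 1. The DC value stands beside the granulocyte and monocyte, NK, T cell, B cell and erythroid markers on the DC arrays, and their part in it was not tested. Brain differed from the immune mean by log2 -2.35, although brain lay above naive cells and overlapped B cells.

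Tuba1a, the main alpha-tubulin of developing neurons, was far higher in brain than in any immune group on both probes. The brighter probe (ILMN_2916705) read 12.90, 12.77 and 13.18 in brain. It read 9.60, 9.27 and 9.78 in Th1 cells and 8.58, 8.30 and 8.68 in Th2 cells. DC arrays read 9.08, 9.13 and 8.96 and B cell arrays 8.52, 8.68 and 8.28, against 9.85, 9.54 and 9.69 in naive CD4 T cells. Brain exceeded the immune mean by log2 3.89 ± 0.12 (SE), or 14.8-fold. Th1 and naive cells overlapped at the top of the immune groups, and Th2 and B cells overlapped at the bottom. Th1 exceeded Th2 cells by 1.03 ± 0.15 (SE) without overlap, and by 0.91 without Th1 replicate 3 or 0.92 without Th2 replicate 2. Th2 cells differed from naive cells by log2 -1.17, DC by -0.64 and B cells by -1.20. The B cell value was -0.37 with median scaling, -0.91 with the authors' scaled signal and -0.46 with the mean of both probes.

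The dimmer Tuba1a probe (ILMN_2494251) read 12.26, 12.24 and 12.22 in brain, which was 71.5-fold (log2 6.16 ± 0.11, SE) over the immune mean. Th2 arrays read 4.78, 4.76 and 5.19 and were not detected. On this probe Th1 was at least 1.86-fold above Th2, and Th2 at least 1.88-fold below naive cells. Both probes thus placed Th2 below Th1 and below naive cells. They differed in sign for B cells and DC, since over naive cells this probe gave 0.28 in B cells and 0.58 in DC, where the brighter one gave -1.20 and -0.64.

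Tuba4a, an alpha-tubulin known from brain, muscle and platelets, was high in brain alone among the 6 groups. Its probe read 8.82, 9.13 and 8.91 in brain. Th1 arrays read 5.40, 5.25 and 5.82, Th2 arrays 5.33, 5.54 and 5.65, DC arrays 5.29, 5.09 and 5.22, B cell arrays 4.86, 5.16 and 5.0, and naive arrays 5.52, 5.52 and 5.53. Brain exceeded the immune mean by log2 3.61 ± 0.11 (SE), or 12.2-fold. All neighbours among the immune groups overlapped, and their means lay between 5.01 and 5.52, with 1 of 3 B cell arrays detected. The 2 platelet markers measured were detected on all brain arrays, at a summed level of 53.8 to 59.5, against 47 to 61.7 over the immune groups.

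**Figure D2:**
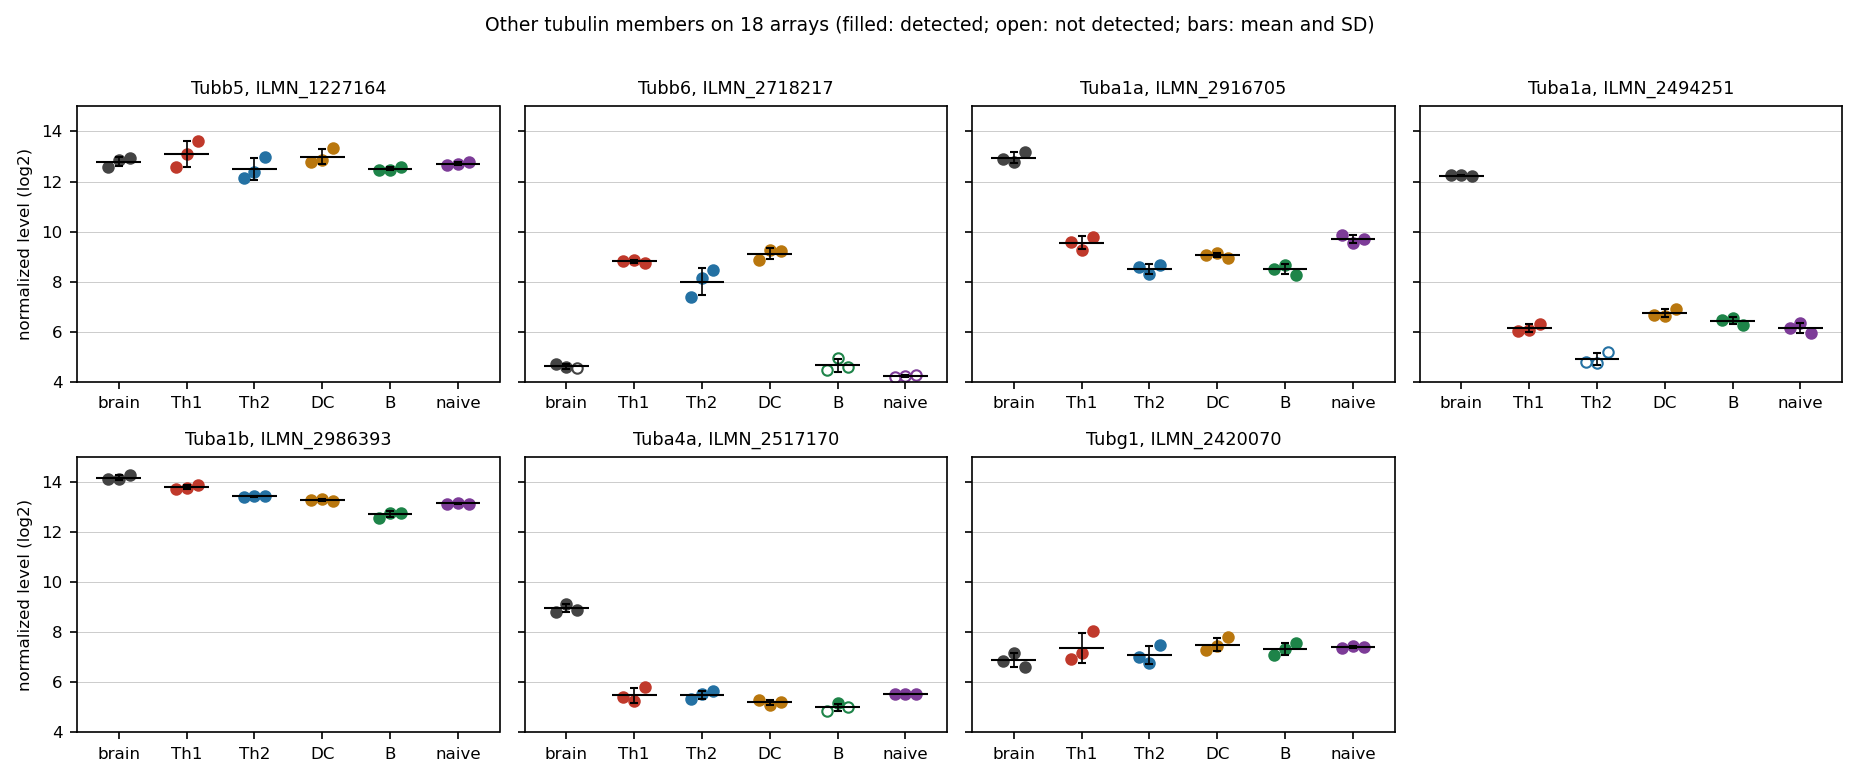
Normalized log2 level of the 7 probes of Tubb5, Tubb6, Tuba1a, Tuba1b, Tuba4a and Tubg1 that entered the fits, on each of 18 arrays, by group (3 arrays each; filled points were detected, open points were not; lines and bars give the mean and SD). Tuba1a and Tuba4a stand highest in brain, Tubb6 is bright in Th1, Th2 and dendritic cells (DC) alone, and Tuba1b, the widest of the 3 remaining genes, runs between group means of 14.17 in brain and 12.71 in B cells.

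Tuba1b, the widely expressed alpha-tubulin beside Tuba1a, was bright on every array, between log2 12.57 and 14.27. Its means were 14.17 ± 0.09 in brain, 13.79 ± 0.09 in Th1 cells, 13.42 ± 0.03 in Th2 cells, 13.28 ± 0.05 in DC, 12.71 ± 0.12 in B cells and 13.14 ± 0.02 in naive CD4 T cells (SD, n = 3 each). The groups were close, yet no neighbours in the order brain, Th1, Th2, DC, naive and B overlapped. Brain exceeded the immune mean by log2 0.90 ± 0.07 and Th1 exceeded Th2 cells by 0.36 ± 0.09 (SE). Over naive cells, Th1 stood 0.64, Th2 0.28 and B cells -0.43 apart. The sign for B cells turned with median scaling, to 0.20, and brain then exceeded the immune mean by 0.36, which is -0.10 relative to the median gene.

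Tubb5, a beta-tubulin of most proliferating cells, was bright on all 18 arrays. It read 12.57, 12.88 and 12.93 in brain, 12.59, 13.12 and 13.62 in Th1 cells, 12.13, 12.38 and 12.98 in Th2 cells, 12.76, 12.87 and 13.32 in DC, 12.48, 12.48 and 12.59 in B cells and 12.65, 12.71 and 12.76 in naive CD4 T cells. Brain and the immune mean differed by log2 0.03 ± 0.18 (SE), and the widest of the 6 differences, Th1 over Th2, was 0.62 ± 0.23 (SE). The Th1 and Th2 arrays overlapped as groups, while matched by replicate number Th1 was higher in 3 of 3 pairs, by 0.46, 0.74 and 0.65. Only naive and B cells, among neighbours in the order, did not overlap. The brain difference turned to -0.39 with median scaling and to -0.38 with the authors' scaled signal, and B cells over naive turned from -0.20 to 0.55 with median scaling.

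Tubg1, the gamma-tubulin of the ring complexes, was detected on all 18 arrays and overlapped between most groups. Brain arrays read 6.85, 7.17 and 6.62, Th1 arrays 6.94, 7.15 and 8.06, Th2 arrays 7.0, 6.78 and 7.49, DC arrays 7.28, 7.44 and 7.80, B cell arrays 7.08, 7.33 and 7.57 and naive arrays 7.39, 7.46 and 7.40. Every pair of neighbours in the order overlapped, while brain arrays lay below all DC and all naive arrays. Brain lay below the immune mean by log2 -0.47 ± 0.19 (SE), but above it by 0.38 with median scaling and by 0.26 with the authors' scaled signal. B cells over naive gave -0.09, or 0.60 with median scaling, and DC over naive gave 0.09, or -0.0002 with the authors' scaled signal. Median scaling moved the median of all genes by 0.62 in brain and by 0.37 in B cells, so no direction is given there for Tubb5 or Tubg1, nor for Tuba1b in B cells.

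**Figure D3:**
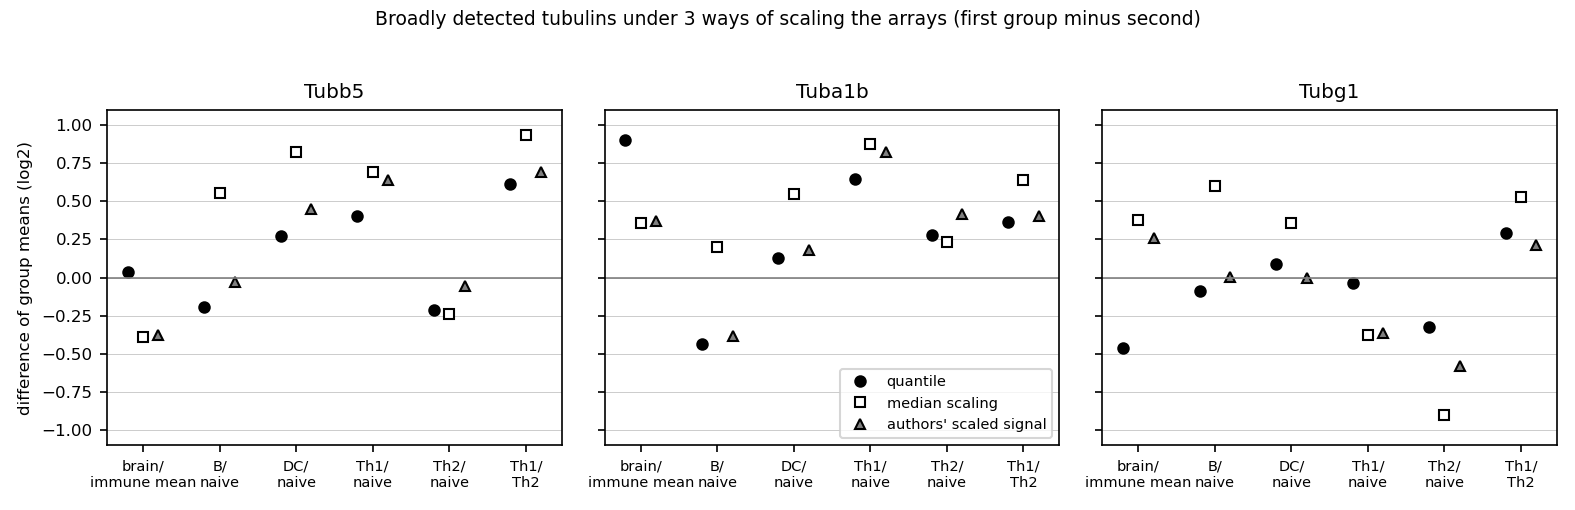
Log2 difference of group means (first group minus second) for Tubb5, Tuba1b and Tubg1 in 6 comparisons, under quantile normalization (filled circles), median scaling (open squares) and the authors' scaled signal (grey triangles). Tubb5 and Tubg1 change sign in brain against the immune mean, and all 3 genes change sign in B cells against naive CD4 T cells under median scaling, where Tubb5 moves to 0.55.

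Of the 7 members in the fits, 4 met the threshold used for all genes (an adjusted p under 0.05 and an absolute log2 difference of at least 1) in brain against the immune mean, where 50.9% of the 12094 genes did. Those were Tubb2b, Tuba1a and Tuba4a, which were higher (3 members, where 25% of all genes were higher), and Tubb6, which was lower (1 member, where 25.9% were lower). In Th1 against naive CD4 T cells, Tubb2b and Tubb6 met it, both higher (27.8% of all genes met it, 12.8% higher and 15% lower). In Th2 against naive cells, 3 members met it, Tubb6 higher and Tubb2b and Tuba1a lower (26.6% of all genes, 12.4% higher and 14.2% lower). In DC against naive cells, Tubb2b and Tubb6 met it, both higher (22.3% of all genes, 12.8% higher and 9.53% lower). In B cells against naive cells, Tuba1a met it, lower (13.8% of all genes, 7.08% higher and 6.76% lower), but not with median scaling or the authors' scaled signal. In Th1 against Th2 cells, Tubb2b and Tuba1a met it, both higher, where 4.38% of all genes did, 2.14% higher and 2.24% lower. With the mean of its probes, Tubb2b was under a log2 difference of 1 in Th1 cells and in DC against naive cells. Tuba1a was under it in Th1 against Th2 cells without Th1 replicate 3 or without Th2 replicate 2. Since the members were chosen with such values known, nothing is read from these counts. The comparisons with naive cells share the same 3 arrays.

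**Figure D4:**
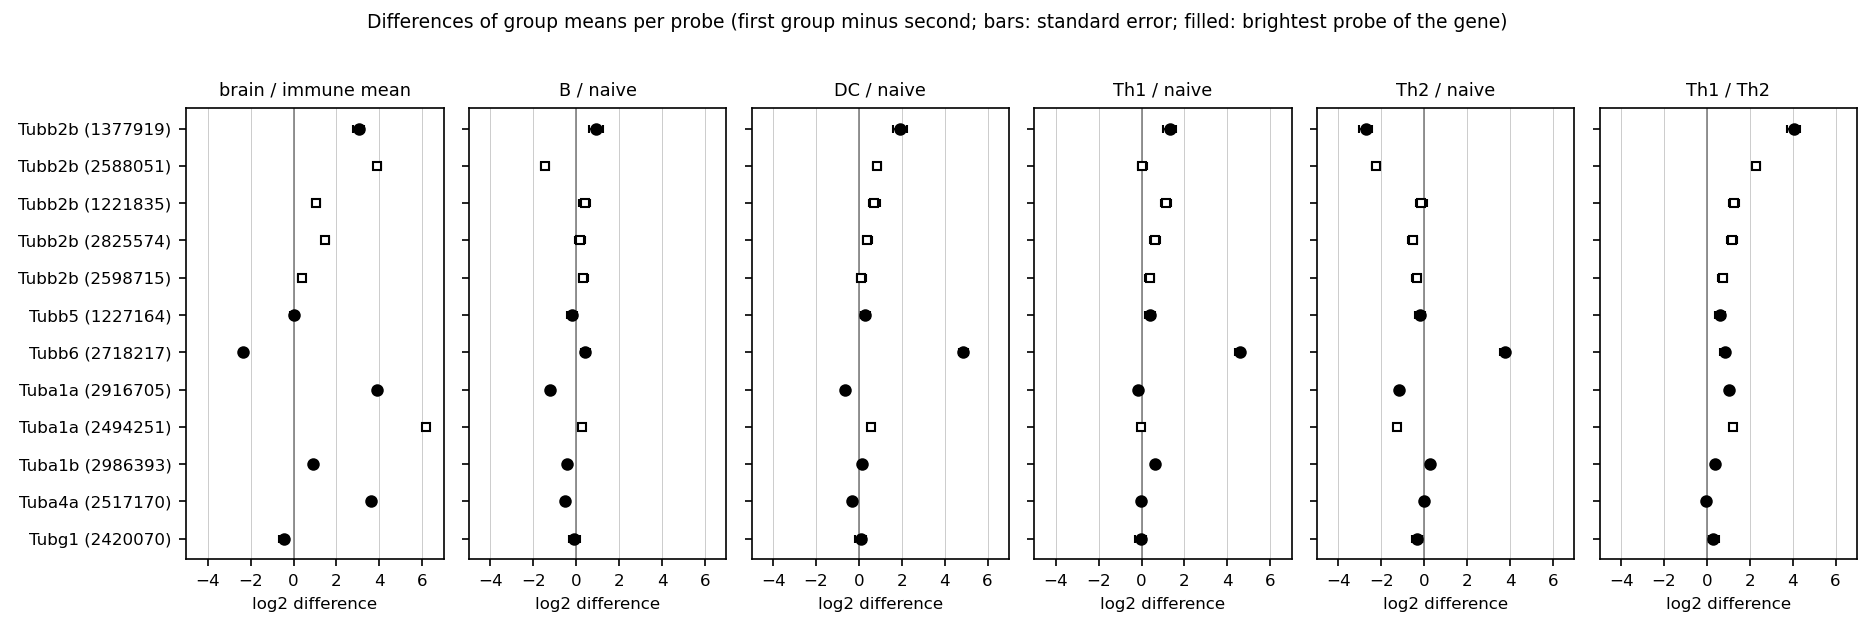
Log2 difference of group means with its standard error for the 12 member probes in the fits, in 6 comparisons (filled circles are the brightest probe of a gene, open squares are its other probes; numbers after the names are those of the probe IDs). Tubb2b and Tuba1a probes lie right of 0 in Th1 against Th2 cells, and the Tubb2b probes fall on both sides of 0 in B cells against naive CD4 T cells, at 0.92 and -1.44 for the 2 brightest; the Tubb6 point there rests on arrays where the probe was not detected.

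The genes whose 6 group means were most like those of a member were found by the root mean square (RMS) difference of centred log2 means among 12076 genes outside the family, as a description over 6 groups. For Tubb2b the nearest were Armcx2 (0.97), Palm (0.99) and Snx10 (1.02). That is a loose likeness, as the spread of Tubb2b itself over the groups was 1.87 by the same measure. Tubb6, with a spread of 2.10, was nearest to Emilin2 (0.31), Anxa2 (0.39) and Ccl9 (0.49). Tuba1a, with a spread of 1.52, was nearest to Daam1 and Scrn1 (0.35 each) and Arhgap20 (0.36), and Tuba4a, with a spread of 1.36, to Rps6kl1 (0.10), Tceal3 and Bex4 (0.14 each). The other 3 genes had spreads of only 0.47 (Tuba1b), 0.23 (Tubb5) and 0.21 (Tubg1), so that nearness to them marks any gene with little change. Their nearest genes were Pdap1 (0.08), Tfe3 (0.08) and Abca17 (0.05).

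The rest of the tubulin pathway was taken from 5 lists of 98 genes, chosen with earlier results of these data known, of which 81 were tested. The list of other tubulins had 7 tested genes, and all 7 passed in brain, 5 higher and 2 lower. Of all genes, 25% were higher and 25.9% lower there. Tubb4a, the beta-tubulin of myelinating cells and neurons, was 11.28 ± 0.13 (SD, n = 3) in brain and 5.35 ± 0.25 (SD, n = 15) in immune cells, a difference of log2 5.93 ± 0.08 (SE; limma adjusted p = 1.73e-19). Tubb4b, a beta-tubulin found widely and in cilia, differed by 1.59 ± 0.13, Tuba3b by 1.44 ± 0.11 and Tuba8 by 1.36 ± 0.13, while Tuba3a was at least 1.46-fold higher, being undetected on all immune arrays. The delta and epsilon tubulins of centrioles, Tubd1 and Tube1, were lower in brain by -1.13 ± 0.11 and -1.16 ± 0.14, but by only -0.66 and -0.57 with median scaling, where neither passed. Tubd1 also fell in Th1 cells (log2 -1.27 ± 0.14; limma adjusted p = 9.62e-07) and in Th2 cells (log2 -1.28 ± 0.14; limma adjusted p = 8.95e-07) against naive cells. Without background correction Tuba3b (0.96), Tuba8 (0.88), Tuba3a (0.65) and Tubd1 in Th1 and Th2 cells (-0.86 and -0.87) did not pass, nor did Tuba3a without brain replicate 2 (0.94), Th1 replicate 3 or naive replicate 3. None of the 7 passed in DC or B cells against naive cells or in Th1 against Th2 cells by limma, where 2, 2 and 3 had an unadjusted p under 0.05. Of all genes, 22.3%, 13.8% and 4.38% passed in these 3 comparisons. Tubb1 and Tubal3 were detected on no array.

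Among microtubule-associated and severing proteins, 20 of 27 were higher and 3 lower in brain, where 25% of all genes were higher and 25.9% lower. Stmn2, a tubulin-binding protein of growing axons, was at least 107-fold higher, Map1b was higher by log2 7.07 ± 0.11 and Map2, a protein of dendrites, by 6.82 ± 0.13 (limma adjusted p = 6.51e-18). Katna1, the catalytic subunit of the severing enzyme katanin, was lower by -2.93 ± 0.12. Of the higher genes, 8 were undetected on every immune array and came through the filter by the brain arrays alone. Clip1, which tracks growing microtubule ends, was lower than in naive cells in Th1 cells (log2 -2.22 ± 0.16), Th2 cells (-2.48 ± 0.16), DC (-1.05 ± 0.16) and B cells (-2.27 ± 0.16; limma adjusted p = 5.34e-09). The DC value did not pass without DC replicate 1 (-0.90), DC replicate 2 or naive replicate 3. Nor did it pass without background correction (-0.99), with an offset of 50 (-0.97) or with median scaling (-0.69). The authors' scaled signal gave -0.998 and the mean of its probes -0.98, and neither passed. Clasp2, another protein of growing ends, was lower in B cells than in naive cells by -1.01 ± 0.18, but did not pass without B cell replicate 2 (-0.98) or 3 (-0.86), and was -0.41 with median scaling and -0.38 with the mean of its probes. Clasp2 was also lower than in naive cells in Th1 cells (-1.49) and in Th2 cells (-1.68). With the mean of its probes these were -0.61 and -0.69, and neither passed. Map9 was at least 4.46-fold higher in Th1 cells, and Map2 was higher in Th2 cells by 1.80 ± 0.16, but by 0.51 with the mean of its probes, where it did not pass. In DC, Tpx2, a spindle assembly factor, was at least 2.85-fold higher than in naive cells and Mapre2 was higher by 1.30 ± 0.14, or 0.78 with the mean of its probes, where it did not pass. Kif2c, a depolymerising kinesin of mitosis, was at least 3.63-fold higher in Th1 cells, 2.39-fold in Th2 cells, 4.62-fold in DC and 1.48-fold in B cells than in naive cells, and the B cell call was lost without background correction and with the authors' scaled signal, as was the Th2 call (0.98) with that signal. Spast, a severing enzyme, did not pass in DC on its brightest probe (log2 -0.15 ± 0.31), while 1 of its 3 other probes passed on the higher side. Of 8 dividing-cell genes, 8 were likewise higher in Th1 cells, 7 in Th2 cells, 7 in DC and 7 in B cells than in naive cells, and all 8 were lower in brain than in the immune mean. Over all genes, 12.8% were higher in Th1 cells, 12.4% in Th2 cells, 12.8% in DC and 7.08% in B cells. In brain, 25.9% of all genes were lower.

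In the gamma-tubulin complex and augmin list, the partners of Tubg1 in nucleating microtubules, 5 of 13 genes were lower and 0 higher in brain. That is 38.5% of the list, where 50.9% of all genes passed, 25% higher and 25.9% lower. Nedd1, which brings the ring complex to the spindle, was lower by log2 -2.93 ± 0.13, Haus6 by -2.46 ± 0.12 and Haus5 by -2.34 ± 0.10 (limma adjusted p = 7.08e-13), while Tubg1 itself had no settled direction there. Haus8 was higher in DC than in naive cells by 2.41 ± 0.14 (limma adjusted p = 2.7e-10) and lower in Th2 cells by -1.04 ± 0.14, which did not pass without Th2 replicate 1 or naive replicate 3. In Th1 cells Haus6 was higher by 1.25 ± 0.16, and Cdk5rap2 (-1.07) and Tubgcp4 (-1.02) were lower. Without Th1 replicate 1 Cdk5rap2 was at -0.94 and did not pass, and Tubgcp4 did not pass without Th1 replicate 3 (-0.78) or naive replicate 1 (-0.92). With the mean of each gene's probes Cdk5rap2 was at only -0.34 and Tubgcp4 at -0.39, and neither passed. Haus6 was at 0.82 with the authors' scaled signal and did not pass. Tubgcp4 was also lower in Th2 cells, by -1.22 ± 0.25, but at -0.91 without Th2 replicate 3 it did not pass. With the mean of its probes it was at -0.68 there and did not pass either.

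Tubulin folding genes, which encode the chaperonin subunits, prefoldin and the cofactors that assemble the dimer, split in brain, with 3 of 17 higher and 2 lower. That is 29.4% of the list, where 50.9% of all genes passed. Arl2 was higher by log2 1.78 ± 0.11, Vbp1 by 1.61 ± 0.21 and the chaperonin gene Cct4 lower by -1.76 ± 0.11 (limma adjusted p = 2.06e-10). In Th1 cells against naive cells Pfdn4 (1.21 ± 0.18) and the chaperonin genes Cct3 (1.09 ± 0.13) and Cct6a were higher, and the prefoldin gene Pfdn5 was lower (-1.17 ± 0.09; limma adjusted p = 9.62e-09). Cct3 was at 0.94 without naive replicate 3 and Pfdn5 at -0.96 with median scaling, where neither passed. In Th2 cells Pfdn4 (1.20 ± 0.18), Pfdn2 (1.12 ± 0.15) and Cct6a (1.05 ± 0.12) were higher, and without Th2 replicate 3 Pfdn2 was at 1.00 and below the threshold, as was Cct6a at 0.99 without Th2 replicate 1.

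In the list of tubulin-modifying enzymes, 3 of 17 were higher and 3 lower in brain, or 35.3%, where 50.9% of all genes passed. Ttl, the ligase that restores the last tyrosine of alpha-tubulin, was higher by log2 2.71 ± 0.14 (limma adjusted p = 1.1e-11) and the glutamylase gene Ttll5 by 1.75 ± 0.22, while Svbp, the partner of the enzymes that remove that tyrosine, was lower by -1.69 ± 0.10, or -0.95 with median scaling. None of the 3 lower calls, on Svbp, Ttll4 and Ttll12, was kept with median scaling or with the authors' scaled signal, and Ttll5 did not pass (0.67) with the mean of its probes. Ttll3, a glycylase gene, was lower than in naive cells in Th1 cells (-2.68 ± 0.26), Th2 cells (-2.75 ± 0.26; limma adjusted p = 1.22e-07), DC (-2.18 ± 0.26) and B cells (-1.25 ± 0.26), the last of which was -0.68 with median scaling and did not pass. Of the glutamylase genes, Ttll4 was lower in DC (-1.34 ± 0.17) and in B cells (-1.07 ± 0.17), and Ttll12, an inactive relative of the ligases, was lower in B cells (-1.08 ± 0.28). Neither B cell value passed without background correction (-0.96 and -0.83), with median scaling (-0.38 and -0.55) or with the authors' scaled signal, and Ttll4 also failed to pass in B cells without naive replicate 1 (-0.97) and in DC with the mean of its probes (-0.87). Ttll4 was lower in Th1 cells too, by -1.01. It did not pass there without background correction (-0.91), without naive replicate 1 (-0.91) or with the mean of its probes (-0.01). In Th1 cells Sirt2 was higher by 1.20 ± 0.26, but did not pass without Th1 replicate 1 (0.93). It also did not pass with median scaling (1.025; limma adjusted p = 0.0574) or with the authors' scaled signal (0.91). Ttc5, which helps to control tubulin mRNA, was lower in Th1 cells by -1.15 ± 0.14. Without Th1 replicate 1 Ttc5 was at -0.98 and with the mean of its probes at -0.71, and it passed under neither. In Th2 cells Ttll5 was lower by -1.24 ± 0.28, which did not pass without background correction (-0.83) or Th2 replicate 3, and Agtpbp1, a deglutamylase, was at least 1.15-fold lower. Agtpbp1 did not pass without naive replicate 1, without background correction, with median scaling, with the authors' scaled signal or with the mean of its probes.

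Over the 5 lists, 46 of 81 genes passed in brain, 31 higher and 15 lower, which is 56.8%, where 50.9% of all genes passed. Of the 31 higher genes, 9 were undetected on every immune array. The brain arrays alone brought those 9 into the fits and into this share. The median difference was 0.33 in the lists and -0.15 over all genes. Against naive cells, 17 passed in Th1 cells (21%, against 27.8% of all genes), 15 in Th2 cells (18.5%, against 26.6%), 10 in DC (12.3%, against 22.3%) and 6 in B cells (7.41%, against 13.8%). These shares are descriptions of lists chosen with the values known.

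**Figure D5:**
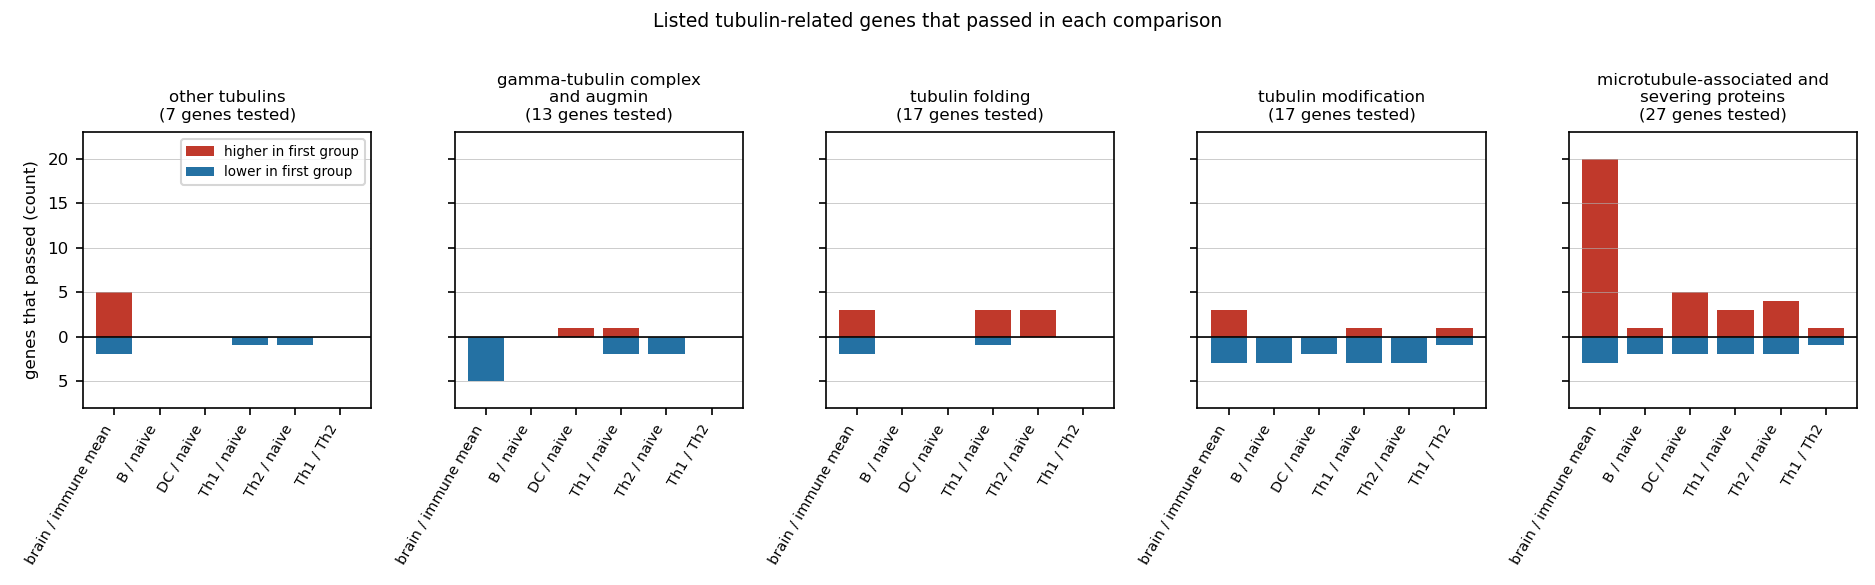
Number of listed tubulin-related genes that passed, by list (panels) and comparison, with genes higher in the first group above 0 and genes lower in it below 0. In brain against the immune mean 20 of 27 microtubule-associated genes were higher and 5 of 13 gamma-tubulin complex and augmin genes were lower. Over all genes, 25% were higher and 25.9% lower there.

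Between Th1 and Th2 cells, 4 of the 81 genes passed, or 4.94%, where 4.38% of all genes did. Map9, a protein of spindle and cilium microtubules, was higher in Th1 cells, at 7.24 ± 0.17 against 5.52 ± 0.35 (SD, n = 3 each), a difference of log2 1.72 ± 0.15 (SE; limma adjusted p = 5.57e-07). Sirt2, a tubulin deacetylase, was higher by 1.08 ± 0.26 (limma adjusted p = 0.00926). That call was lost with an offset of 50 (0.99) and with only the Th1 and Th2 arrays fitted (limma adjusted p = 0.114). Map2 was lower in Th1 cells, by at least 2.37-fold (limma adjusted p = 2.65e-07), since it was detected on no Th1 array and on all 3 Th2 arrays. Svbp was lower by -1.04 ± 0.13 (limma adjusted p = 2.95e-05). Without Th1 replicate 1 or without Th2 replicate 3, Sirt2 (0.81 and 0.89) and Svbp (-0.88 and -0.97) did not pass and 2 of the 4 calls remained. With the mean of its probes in place of the brightest, Map2 differed by only -0.57. The sign of Map9 in Th1 against Th2 cells was that of Tubb2b and Tuba1a, and none of the 8 dividing-cell genes passed there by limma, with 3 at an unadjusted p under 0.05 and a median of 0.44.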

How the data were processed

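Per the labels' protocols, total RNA was extracted with TRI reagent and copied into biotinylated cRNA for Illumina arrays. The submitters' processing notes name GenomeStudio without a version. The deposited intensity values are probe signals on a linear scale, not background-subtracted, and a detection p-value accompanies each, per the file headers. The authors' scaled intensity values equal the deposited signals times 1 factor per array, with a mean of 229 on each array and column medians of 38.8 to 61; they are linear and uncentred. A genome build, slides and scan dates are not given in the sources. Groups came from the sample titles.

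Of 45281 probes, 34885 had 1 gene symbol, 18 had several and 10378 were not named; 34807 had a gene ID found in the gene table of RefSeq (GRCm38.p6), which served for names and neighbours and changed 0 symbols. Background was corrected by normexp with control values inferred from detection p-values. After an offset of 16, quantile normalization and log2 followed (limma 3.58.1 in R 4.3.3). Sequences and plots used Python 3.11.15, with pandas 2.3.3 and with matplotlib 3.10.9. Probes detected (p under 0.01) on at least 3 arrays numbered 19872 with 1 symbol, and the brightest of a gene stood for it, giving 12094 genes. A linear model with 6 group means over all 18 arrays was fitted with limma (lmFit, eBayes; two-sided, Benjamini-Hochberg over all genes). A gene passed at an adjusted p under 0.05 and an absolute log2 difference of at least 1. An "at least" fold sets the brighter group's mean against the lowest signal detected on the arrays of the dimmer group, where no array of that group detected the probe.

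The member genes and all gene and marker lists were chosen with earlier results of these data known. Named genes are every member probe, the 3 genes most like each member, up to 3 passing genes with the widest difference per list and comparison, all tested genes of the list of other tubulins, and any gene whose probes disagree. Ttll3, Clip1 and Kif2c are given in all 4 comparisons with naive cells, which all passed. Clasp2 and Ttll4 are given in each comparison with naive cells in which they passed. Of the likest genes, only the first is given for Tubb5, Tuba1b and Tubg1. The series' design text calls the arrays biological replicates. Arrays of a group correlated at 0.971 to 0.996 across genes and shared at most 1 identical signal value. The labels do not say that replicate numbers pair samples. Between Th1 and Th2 arrays of the same number, the correlations of deviations from group means were 0.615, 0.343 and 0.7. In each other pair of groups at least 1 of the 3 was 0.1 or less. The fit was tested on simulated data. The number of arrays limits the precision. Alternatives changed the background correction, the offset, the scaling, the filter, the choice of probe, the fold threshold, the arrays fitted, the replicate block, or left out 1 array.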

Additional observations from a re-analysis of the deposited data

How the results depend on the processing

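The 6 differences of each of the 7 members (42 values) were recomputed under 8 settings and without each array. No value changed sign while called. Values moved by more than the spread between replicates for 24 with median scaling, 14 with the authors' scaled signal, 9 with the mean of a gene's probes, 8 with an offset of 50, 7 without background correction, and 0 with all probes kept, with only the arrays compared or with the replicate block. Tubb2b in brain, at 3.04, was 1.97 with the mean of its probes and 2.92 to 3.25 without single arrays. Its Th1 over Th2 difference, 4.05, was 3.23 with an offset of 50, 1.90 with the mean of its probes, which includes the dim ones, and 3.61 to 4.36 without single arrays. Tubb6 in DC over naive cells, 4.88, was 3.91 without background correction, 3.49 with an offset of 50 and 3.69 with the authors' scaled signal, and 4.81 to 5.0 without single arrays; in Th1 over naive cells, 4.58, it was 3.63, 3.21 and 3.23 under these 3 settings, 4.14 with median scaling, and 4.56 to 4.61 without single arrays. The Tubb6 values are fitted against undetected naive signals and are not bounds.

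Listed genes that passed kept within 1.5 times of 46 in brain under every setting (44 to 46 without single arrays). In B cells the count of 6 became 2 without background correction, 1 with an offset of 50, 14 with median scaling, 2 with the authors' scaled signal, 2 with the mean of probes and 26 by adjusted p alone. In DC 10 became 5 with the mean of probes and 32 by adjusted p alone. In Th1 against naive cells 17 became 11 and 38 under these settings. In Th2 cells 15 became 8 without background correction, 8 with an offset of 50, 9 with the mean of probes and 42 by adjusted p alone. In Th1 against Th2 cells 4 became 2 with an offset of 50 and 14 by adjusted p alone. Without single arrays the counts ran 5 to 7 in B cells, 8 to 12 in DC, 14 to 19 in Th1, 13 to 17 in Th2 and 2 to 6 in Th1 against Th2 cells. Over all genes, 530 became 352 without background correction, 301 with an offset of 50 and 345 with the authors' scaled signal in Th1 against Th2 cells, and 1673 became 2631 with median scaling in B cells. By adjusted p alone the counts over all genes were 10451 in brain (6156 with the fold threshold), 6497 in Th1 (3366), 6339 in Th2 (3211), 6130 in DC (2699) and 4246 in B cells (1673), and 1709 in Th1 against Th2 cells (530). The cause of the moves was not tested. The replicate block fitted an effect of the replicate number that was shared by all groups. It left the listed counts at 46, 6, 10, 17, 15 and 4 and changed no member's call. In Th1 against Th2 cells it gave 535 in place of 530 genes. A fit paired within Th1 and Th2 cells alone was not run, so the effect of that pairing on the calls was not tested. The offset understates folds of dim probes, and probes near background carry a bound alone.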
